A study of Mus musculus with 5 samples.

Results

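Long noncoding RNAs were followed in total RNA of mouse embryonic pituitaries. The set was drawn up as 8 named RNAs with nuclear, growth-linked or neural roles, and a row of the all-gene table was taken when its gene name was one of them. Rows were found for 4 of the 8, out of 20097 gene symbols: Malat1, Neat1, Miat and Snhg11, each with 1 region. Gas5, Snhg1, Sox2ot and Rmst were not analysed here. All 4 RNAs passed the filter of a mean of at least 1 tag per 10000000, the unit in which levels are given below, and RefSeq gives all 4 the biotype lncRNA.

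The pituitaries came from e12.5 embryos of the mouse strain B6;129. The 2 libraries labelled KO 13 and KO 16 have the genotype Itgb1 f/f; Pitx1-cre, and the 3 control libraries, labelled WT 9, WT 10 and WT 12, are Itgb1 f/f, so every embryo carried floxed Itgb1. The labels call the cells epithelial pituitary cells and each library a biological replicate. Itgb1 encodes integrin beta 1, and Pitx1-cre acts in oral ectoderm and the pituitary that forms from it, so other cells of a dissected gland keep the gene. The RNA was depleted of ribosomal RNA and not selected for poly(A) tails, and the counted regions run over introns as well as exons.

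A long noncoding RNA acts as RNA and is not translated. Malat1 is an abundant nuclear RNA that gathers in nuclear speckles, the stores of splicing factors. Neat1 is the scaffold of paraspeckles, nuclear bodies built on its long form, and a short form ends early from the same promoter. Miat, also called Gomafu, is a nuclear RNA of neurons and retinal precursors. Snhg11 is a host gene, an RNA whose introns hold small nucleolar RNAs, and it is known from neurons.

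What the counts cover follows from the sequences of these RNAs, taken from GENCODE M21 on GRCm38; the deposited coordinates are on mm9. The first 3 lines show a feature each of these RNAs is known for, with DNA letters for the RNA strand and the feature in capitals. In Malat1 the capitals mark a pair of T runs, broken by C or by GC, and a run of 12 A, the tracts of the triple helix that protects its 3′ end. In Neat1 they mark AATAAA, the poly(A) signal in the last 60 bases of the short form. In Miat they mark TACTAAC, the repeat bound by the splicing factor SF1.
Malat1, chr19:5795984-5796074, minus strand, bases 6599 to 6689 of 6983: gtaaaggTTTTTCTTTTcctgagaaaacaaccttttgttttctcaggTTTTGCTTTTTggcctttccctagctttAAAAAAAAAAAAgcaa
Neat1, chr19:5842307-5842366, minus strand, bases 3113 to 3172 of 20771: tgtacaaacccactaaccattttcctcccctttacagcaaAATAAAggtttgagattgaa
Miat, chr5:112216756-112216808, minus strand, bases 5180 to 5232 of 8758: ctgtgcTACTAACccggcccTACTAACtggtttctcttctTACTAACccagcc

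TACTAAC, searched on the RNA strand only, occurred 6 times in this Miat transcript, 1 time in the long form of Neat1 and 0 times in Malat1 and Snhg11. Of the 76 GENCODE lincRNA transcripts of at least 5 kb, 17.1% held it, and those with 6 or more copies were 2 transcripts of Miat itself. A run of 12 A occurred in 27.6% of those 76 transcripts, and AATAAA in the last 60 bases of 31.1% of 9100 lincRNA transcripts. These matches describe the letters and not a bound factor.

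For Snhg11 the features are a pair of H/ACA small nucleolar RNAs, the kind that guides pseudouridylation, which GENCODE places in its intron 3 and names Gm25187 and Gm25129. Capitals mark a match to ANANNA between bases 51 and 76, the hinge box of this class, and the final ACA.
Gm25187, chr2:158378222-158378354, plus strand: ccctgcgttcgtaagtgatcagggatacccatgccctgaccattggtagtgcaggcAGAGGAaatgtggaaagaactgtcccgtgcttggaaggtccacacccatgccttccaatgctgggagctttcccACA
Gm25129, chr2:158379534-158379666, plus strand: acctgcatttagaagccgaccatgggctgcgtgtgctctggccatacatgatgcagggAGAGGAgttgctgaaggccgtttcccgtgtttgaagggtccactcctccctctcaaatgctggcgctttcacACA
Each is 133 bases long, and they were identical at 93 of 136 aligned columns (68.4%).

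The counted region of Malat1 (mm9 chromosome 19, 5796090 to 5802271) is 6182 bases, 801 fewer than the single exon of the gene. That of Neat1 (mm9 chromosome 19, 5842702 to 5845078) is 2377 bases, which is 11.4% of the 20771 bases of the gene and 795 fewer than its short form. The outer ends of these regions lie 48988 bases apart, against 49788 between the same ends of the GENCODE genes, so the Neat1 region sits at the 5′ end that both forms share. The level of Neat1 therefore adds its forms together, and the long form was not measured apart. If the bases left out are shared evenly between the ends of a gene, the Malat1 tracts and the Neat1 poly(A) signal shown above lie outside the regions. The regions of Miat (mm9 chromosome 5, 112642648 to 112657568) and Snhg11 (mm9 chromosome 2, 158202174 to 158211881) cover 92.3% and 92.4% of the gene spans. They include introns, as the printed transcript of Miat has 8758 exonic bases in 7 exons and the longest of Snhg11 has 5864 in 5. GENCODE M21 gives that Snhg11 transcript a coding biotype, unlike RefSeq.

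Reads over the listed genes numbered 4480809 to 6143263 per library. The ribosomal precursor Rn45s still took 14.2% of all tags in library KO 13 and 8.9% in library KO 16, against 22.2%, 16.8% and 23.5% in controls 9, 10 and 12. Itgb1 was at 446.36 in library KO 13 and 186.36 in library KO 16, against 272.73 to 430.91 in the controls, over a region that spans the whole gene and so does not isolate the deleted part. With background and composition taken off, as described below, it was at 273.53 and 126.64, against 366.3 to 436.37. The level thus checks the label of KO 13 on one scale only, and the pair are called libraries 13 and 16 from here. Library 16 stood apart, as autosomal olfactory and vomeronasal receptor genes, silent in most tissues, carried 1.498 tags per kb there, 0.472 in library 13 and 0.156 to 0.395 in the controls. That rate times a region's length is called the background of a region below. The pituitary factors Pitx1, Lhx3 and Hesx1 were detected in every library, Pitx1 at 283.64 and 98.18 in libraries 13 and 16 and at 97.27 to 148.18 in the controls. Library 16 had the lowest Hesx1 and Lhx3 but the highest Lhx4, at 136.36 against 72.73 in library 13 and 34.55 to 44.55 in the controls. Hesx1, Lhx3 and Lhx4 were chosen outside the naming rule given below, from 9 listed pituitary progenitor genes.

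The 4 RNAs differed in level by more than 2 orders of magnitude. Per kb of region, Malat1 averaged 576.7 tags over the 5 libraries, Miat 7.26, Neat1 5.89 and Snhg11 2.0. Among 19313 tested genes Malat1 ranked 16th per kb, Miat 1281st, Neat1 1720th and Snhg11 7243rd. These ranks pool unlike libraries, as Neat1 ranked 263rd in library 16, 2807th in library 13 and 2792nd to 4449th in the controls. Snhg11 ranked 12337th in library 16, 8312th in library 13 and 3980th to 9964th in the controls. Among the 1317 tested genes that RefSeq calls lncRNA the pooled ranks of Malat1, Miat, Neat1 and Snhg11 were 2, 26, 34 and 208. The median lncRNA of that class was at 2.32 tags per kb in library 16, at 0.776 in library 13 and at 0.295 to 0.677 in the controls. Miat and Neat1 are neighbours in this order whose ranks turned in library 16, where Neat1 was at 14.5 tags per kb and Miat at 4.87. Neat1 and Snhg11 turned in control 10, at 3.06 and 3.37 tags per kb.

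Between genotypes, Neat1 was higher and Malat1 and Miat were lower in libraries 13 and 16 than in the controls once background and library composition were taken off, and none of these passed an adjusted p under 0.05. In limma on the deposited values 0 of 19313 genes were called (0.0%) and 0 of the 4 RNAs, with 5632 genes higher (29.2%) and 4 lower (0.0207%) at an unadjusted p under 0.05. The median gene was itself 0.97 higher on the log2(value + 1) scale, so changes are given relative to it. In the quasi-likelihood test of edgeR on recovered reads 0 of 15623 genes were called (0.0%), and 370 were higher (2.37%) and 87 lower (0.557%) at an unadjusted p under 0.05. Values called scaled below have the background subtracted and TMM factors applied; there limma called 0 of 14618 genes (0.0%), with 154 higher (1.05%) and 130 lower (0.889%) at an unadjusted p under 0.05. With TMM factors alone, Neat1 lay above every control in both libraries, as did 8.38% of 19200 genes, and Malat1 and Miat lay below, as did 6.85%.

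Malat1, the speckle RNA, was at 4616.36 in library 13 and 2481.82 in library 16, against 2274.55, 4172.73 and 4281.82 in controls 9, 10 and 12. The groups overlapped, with library 13 above every control and library 16 between the lowest and the middle one. Counting error was small beside this spread, since 2730 reads in library 16 have exact Poisson 95% limits of 2389.6 and 2576.7 tags. The log2 change was -0.02 (SE 0.65, limma, adjusted p = 0.982), and relative to the median gene -0.99. On the scaled values Malat1 was at 2975.43 and 2704.57, against 3481.15, 3746.41 and 4410.35 in controls 9, 10 and 12. Both libraries then lay below every control, which held for 7.9% of all 14618 genes. The scaled log2 change was -0.44 (SE 0.37, limma, adjusted p = 0.821). An exact permutation test, 2-sided, gave p = 0.1, the smallest that 2 libraries against 3 allow, and p = 1.0 on the deposited values.

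**Figure D1:**
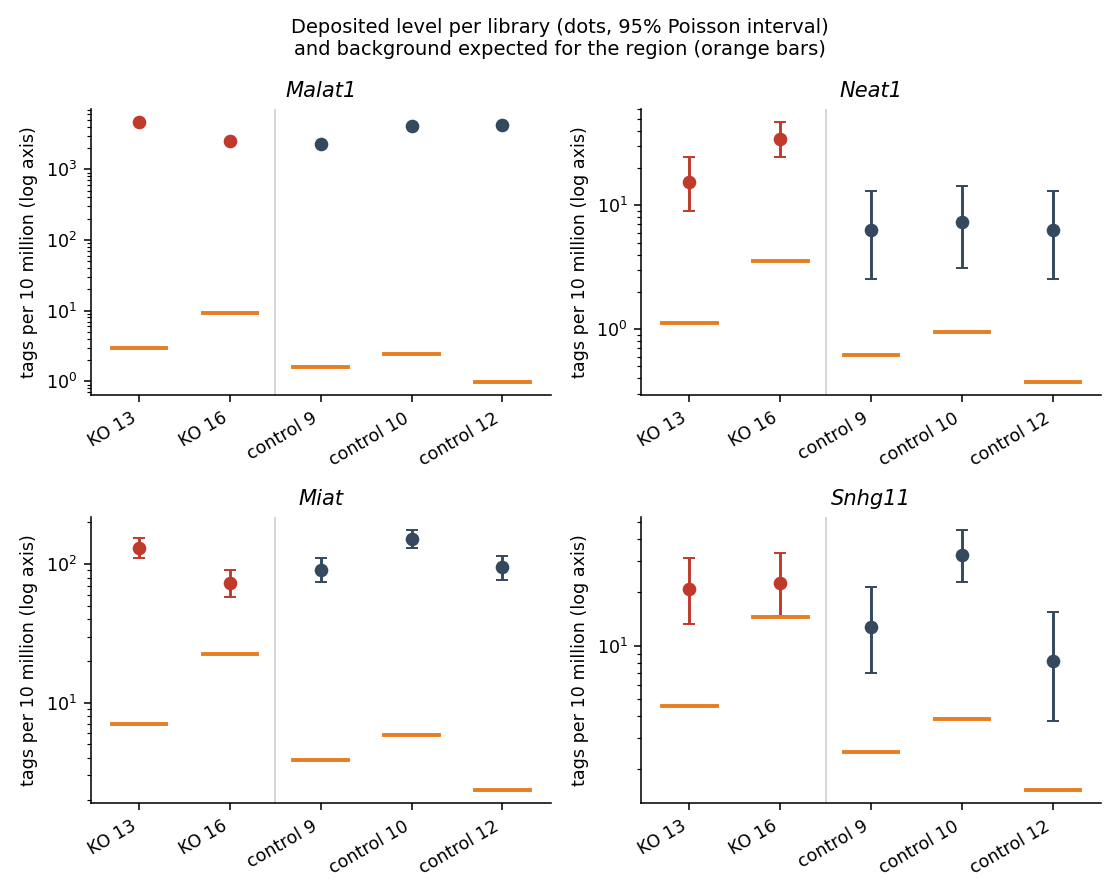
Deposited level of each RNA in tags per 10000000 (log axis) in libraries 13 and 16 (red) and controls 9, 10 and 12 (blue), with 95% Poisson intervals for counting error, and the background expected over the region (orange bars). Background was 0.373% of the Malat1 level in library 16 and 64.0% of the Snhg11 level there.

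Neat1, the paraspeckle RNA, was at 15.45 in library 13 and 34.55 in library 16, against 6.36, 7.27 and 6.36 in controls 9, 10 and 12. These levels stand for 17 and 38 reads, against 7, 8 and 7 reads. Both libraries lay above every control, as did 50.2% of all tested genes on this scale, so the order by itself says little of Neat1. Its log2 change was 1.66 (SE 0.75, limma, adjusted p = 0.128, unadjusted p = 0.0263). Of all tested genes, 29.2% had an unadjusted p under 0.05 and a higher value. Relative to the median gene the change of Neat1 was 0.69.

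The background of the Neat1 region was 3.56 tags in library 16, which is 10.3% of its level, and 7.26% of its level in library 13. In the controls it was 5.83% to 12.9% of the level. On the scaled values Neat1 was at 9.24 in library 13 and 33.9 in library 16, against 8.8, 5.69 and 6.17 in controls 9, 10 and 12. Library 13 was thus just above control 9, and library 16 stood well above the other 4. Such an order, both above every control, held for 7.92% of all genes on this scale. The scaled log2 change was 1.28 (SE 0.72, limma, adjusted p = 0.821) and the exact permutation p was 0.1, as on the deposited values. Without library 16 the relative change was 0.36 on the scaled values and 0.30 on the deposited ones, and without library 13 it was 2.15 and 0.94. Without library 13 the scaled fit called Neat1 (limma, adjusted p = 0.0491), where 6.97% of 14529 genes were called as higher and 1 library is assumed to vary like the controls. The other fits without library 13 did not call it, with an adjusted p of 0.0784 in edgeR and 0.063 in limma on the deposited values.

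**Figure D2:**
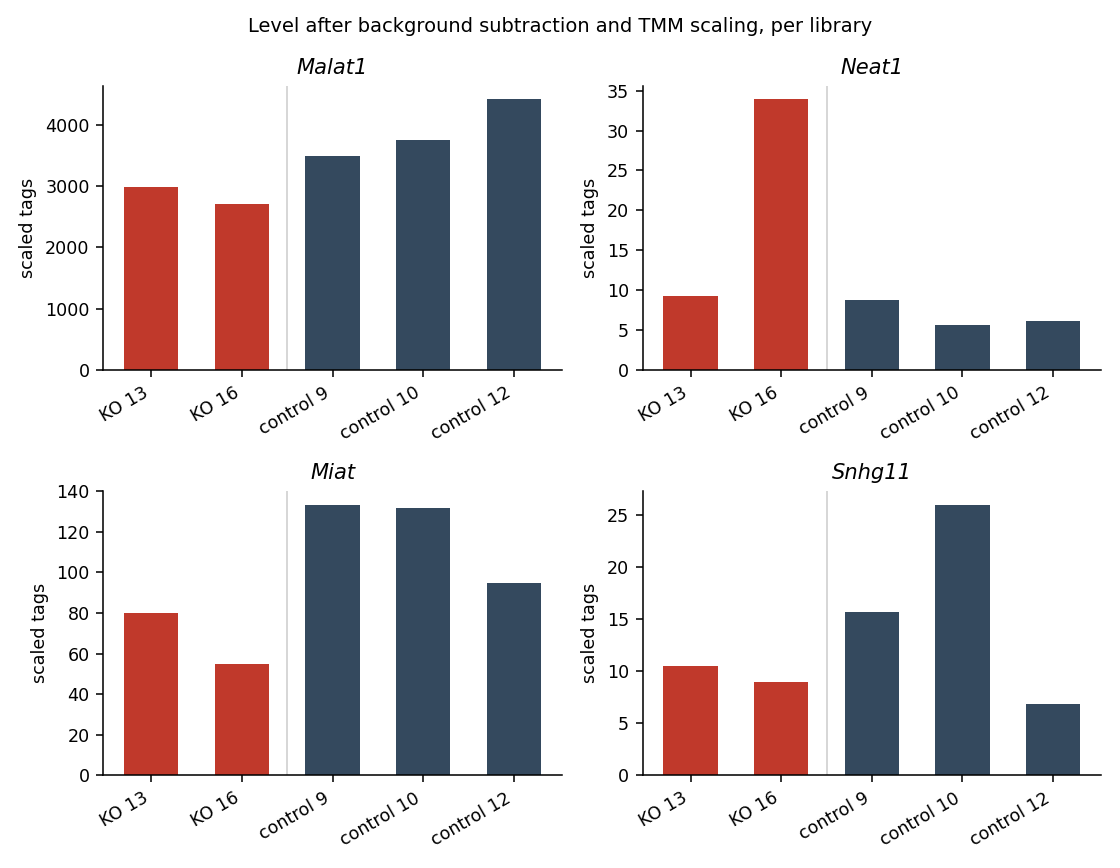
Level of each RNA per library after background subtraction and TMM scaling, in scaled tags per 10000000, with libraries 13 and 16 in red and the controls in blue. Malat1 (2975.43 and 2704.57) and Miat (79.89 and 55.11) lay below every control, Neat1 reached 33.9 in library 16, and Snhg11 overlapped the controls.

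Malat1 and Neat1 are neighbouring genes with a like nuclear location, and their ratio within a library does not depend on scaling. Neat1 reads were 0.334% of the reads of the pair in library 13 (exact Clopper-Pearson 95% interval 0.194 to 0.534) and 1.37% in library 16 (0.973 to 1.88). They were 0.279% (0.112 to 0.574), 0.174% (0.0751 to 0.343) and 0.148% (0.0597 to 0.306) in controls 9, 10 and 12. The interval of library 16 lay above all others, while that of library 13 overlapped each control. The log2 ratio differed by 1.82 between the groups, and by 1.83 with background subtracted, with an exact permutation p of 0.1 for each, the smallest possible. Without library 16 that difference was 0.79 and without library 13 it was 2.85. These intervals cover counting error only.

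**Figure D3:**
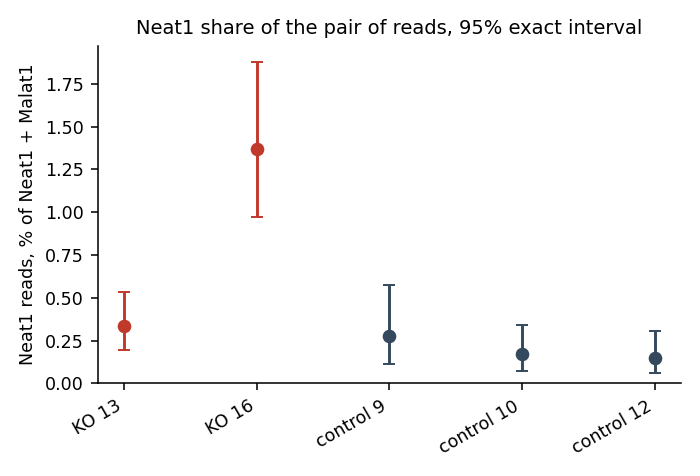
Neat1 reads as a percentage of Neat1 plus Malat1 reads in libraries 13 and 16 (red) and the controls (blue), with exact 95% binomial intervals. Library 16 was at 1.37%, and the other 4 libraries were between 0.148% and 0.334%.

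The neighbouring genes had smaller relative changes than Neat1. Frmd8, next to Neat1, was at 60.91 and 67.27 in libraries 13 and 16, against 41.82, 40.91 and 40.0 in controls 9, 10 and 12, a relative change of -0.34. The ratio of Neat1 to Frmd8 tags was 0.254 and 0.514 in libraries 13 and 16, against 0.152, 0.178 and 0.159 in controls 9, 10 and 12, and the exact permutation p was 0.1. The log2 difference of that ratio was 1.15, with 0.64 left without library 16 and 1.66 without library 13. Ltbp3 had a relative change of -0.10, Slc25a45 one of 0.01 and Tigd3 one of 0.18. None of these neighbours passed the test. Beside Miat, Cryba4, Crybb1 and Tpst2 had relative changes of 1.34, 1.05 and 0.40, none past the test.

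Proteins of speckles and paraspeckles were measured for 11 of the 15 genes listed. None was called, and all 11 lay below the median gene, with a median relative change of -0.88. The median was 0.14 in library 13 and -2.13 in library 16, and 0.12 and -1.21 on the scaled values. Son, a core speckle protein, was at 1029.09 and 288.18 in libraries 13 and 16, against 407.27, 718.18 and 760.0 in controls 9, 10 and 12. Srrm2, the other large speckle scaffold, was at 1030.0 and 348.18, against 330.91, 585.45 and 689.09 in the same controls. Library 13 was the highest and library 16 the lowest or second lowest for both genes, so neither followed Neat1, which was high in library 16.

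Miat, the neural nuclear RNA, was at 130.91 in library 13 and 72.73 in library 16, against 90.91, 152.73 and 94.55 in controls 9, 10 and 12. On the deposited values the groups overlapped, and library 16 was below every control. Both libraries below every control, which was so for 0.202% of genes on that scale, held for 0 of the 4 RNAs. Its log2 change was -0.16 (SE 0.56, limma, adjusted p = 0.827), and relative to the median gene -1.13. The region is 14.9 kb long, and its background was 22.3 tags in library 16, or 30.7% of the level there, against 5.38% in library 13 and 2.46% to 4.23% in the controls. With background subtracted and scaled, Miat was at 79.89 and 55.11 in libraries 13 and 16, against 133.35, 131.91 and 95.01 in controls 9, 10 and 12. Both then lay below every control, as did 7.9% of all genes. The scaled log2 change was -0.83 (SE 0.35, limma, adjusted p = 0.821, unadjusted p = 0.0485), where 0.889% of genes had a lower value at an unadjusted p under 0.05. The exact permutation p was 0.1.

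The direction of Miat did not rest on 1 library, and a call did. Its relative change was -0.55 without library 16 and -1.86 without library 13, and -0.60 and -1.09 on the scaled values. Without library 13 it was called lower on the scaled values (limma, adjusted p = 0.0449) and by edgeR (adjusted p = 0.000251), in fits that called 15.7% and 23.6% of genes as lower. That edgeR fit called 20.9% of genes as higher. The edgeR fit without library 13 also called Malat1 as lower (adjusted p = 0.0179). In bulk RNA, fewer cells of a type and less RNA per cell cannot be told apart.

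Tissue next to the gland was followed by marker lists. Of 10 genes of the hypothalamus and infundibulum 0 were called; 8 lay below the median gene, with a median relative change of -1.49. The list median on the scaled values was -1.43 in library 13 and -1.84 in library 16, and 5 of the 7 genes tested there lay below every control in both libraries, against 7.9% of all genes. Their summed scaled level was 232.57 and 153.41 in libraries 13 and 16, against 643.37, 628.29 and 630.58 in controls 9, 10 and 12. Fgf10, a growth factor of the infundibulum, was at 138.18 and 92.73, against 139.09, 344.55 and 310.91 in those controls, and Tbx3, a transcription factor, at 97.27 and 48.18, against 129.09, 157.27 and 142.73. On the scaled values Fgf10, over a region of 77.1 kb, was at 65.65 in library 13 and at 0 in library 16. No gene of the list was at 0 in any library on the deposited values. The part of such cells in the Miat level was not tested.

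Markers of neurons were spread around the median gene. Of 13 measured, 0 were called, with 8 above and 5 below the median gene and a median relative change of 0.07. On the scaled values the list median was -0.33 in library 13 and 0.19 in library 16. Their summed scaled level was 779.64 and 1223.38 in libraries 13 and 16, against 1139.81, 1016.49 and 787.36 in controls 9, 10 and 12. Of these sums Rbfox3, over a region of 419.0 kb, held 125.12 and 608.26, against 180.07, 150.25 and 71.22 in the same controls. The high sum of library 16 thus rested on Rbfox3. Map2, a microtubule protein of dendrites, had a relative change of -0.74 and Rbfox3, a neuronal splicing factor, one of 0.68. Map2, over 266.5 kb, held 355.08 and 91.51 of the scaled sums, against 450.47, 476.33 and 471.33 in controls 9, 10 and 12, and so went the other way. After scaling, 1 of the 13 genes lay below every control in both libraries and 0 above, against 7.9% and 7.92% of all genes. Neural progenitor genes had 0 of 9 called and a median of -0.66, with Pax6 at 0.07 and Sox1 at -0.65. The median was -0.20 without library 16 and -1.16 without library 13.

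Of 8 genes listed as protein partners of neural noncoding RNAs, 7 were measured and 0 called. All 7 lay below the median gene, with a median relative change of -0.58, -0.05 in library 13 and -1.41 in library 16. After scaling, 6 of 7 lay below it, with a median of -0.23, and -0.08 and -0.51 by library. Ezh2, the methyltransferase of a Polycomb complex, had a relative change of -0.58, and the RNA-binding protein gene Hnrnpa2b1 one of -0.66. Sf1 and Celf3, whose proteins bind Miat, were picked from this list after their values were seen. Sf1 was at 248.18 and 91.82 in libraries 13 and 16, against 103.64, 158.18 and 214.55 in controls 9, 10 and 12. Celf3 was at 28.18 and 49.09, against 29.09, 29.09 and 21.82 in those controls. Neither separated the groups. Sox2, the progenitor factor of the listed partners, was at 70.91 and 23.64, against 38.18, 38.18 and 50.91.

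Snhg11, the host RNA, was at 20.91 in library 13 and 22.73 in library 16, against 12.73, 32.73 and 8.18 in controls 9, 10 and 12. Both lay inside the range of the controls, whose SD was 73.0% of their mean. The levels rest on 23 and 25 reads, against 14, 36 and 9 reads. Its log2 change was 0.49 (SE 0.69, limma, adjusted p = 0.59) and relative to the median gene -0.48, so the sign depended on the scale. Background was 64.0% of its level in library 16, against 21.9% in library 13 and 11.7% to 19.6% in the controls. On the scaled values it was at 10.53 and 8.96, against 15.67, 25.96 and 6.87 in controls 9, 10 and 12 (log2 change -0.51, SE 0.66, limma, adjusted p = 0.846). Controls 10 and 12 differed beyond counting error, with Poisson 95% limits of 22.9 to 45.3 and 3.74 to 15.5 tags, and no difference between genotypes was detectable beside that spread.

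Other host genes of small nucleolar RNAs were set beside it. Rows were found for 6 of 17 listed, 0 were called, and 5 lay below the median gene. Library 13 had a median of 0.35 for them relative to the median gene and library 16 one of -1.79, or 0.37 and -0.69 after scaling. Snhg3 was at 6290.0 and 435.45 in libraries 13 and 16, against 719.09, 5146.36 and 2365.45 in controls 9, 10 and 12. Snhg17, listed as 9430008C03Rik and the row before Snhg11 on mm9 chromosome 2, was at 384.55 and 150.91, against 147.27, 587.27 and 143.64 in those controls. Control 10 was above the other controls for Snhg11, Snhg3 and Snhg17 alike. Genes of the proteins that bind such RNAs had 0 of 8 called and a median of -0.45, or -0.08 on the scaled values. The deposited median was 0.01 without library 16 and -1.18 without library 13, and the scaled one 0.01 and -0.46. Among these genes Npm1 was at -0.96 and Nolc1 at -0.14. Factors of nonsense-mediated decay, the route that removes many spliced host RNAs, had 0 of 11 called and a median of -0.52, with Smg1 at -0.61. That median was -0.21 on the scaled values. The deposited median was 0.01 without library 16 and -1.18 without library 13, and the scaled one 0.0 and -0.73.

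The 4 RNAs were then set beside the other noncoding genes. Of 1382 other genes that RefSeq calls lncRNA, 1313 passed the filter and 0 were called. Their median relative change was 0.37, against -0.03 for 16048 protein-coding genes and a median of -0.73 for Malat1, Neat1, Miat and Snhg11. By library the median of those other lncRNA genes was -0.04 in library 13 and 0.82 in library 16. On the scaled values, with background subtracted, it was -0.06 and 1.16 over 704 genes, and the cause was not tested. A gene of low level could pass the filter through library 16 alone. Among named noncoding RNAs 20 of a list of 44 names had rows and 0 were called, with a median of -0.28. Its sign rested on single libraries, as it was 0.07 without control 9 or control 10, and 0.40 in the scaled fit without library 13. Kcnq1ot1, an imprinted antisense RNA, had a relative change of -0.54 and Peg13, also imprinted, one of 0.16. Xist, picked from this list after its values were seen, was at 2089.09 in control 10. It was at 45.45 and 13.64 in controls 9 and 12, and at 70.91 and 204.55 in libraries 13 and 16. Embryo sex was not a term of the fits, and its part in the levels of the 4 RNAs was not tested. The counting is not stated to use strand and all regions are listed on the plus strand, so reads of an antisense partner cannot be told apart.

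**Figure D4:**
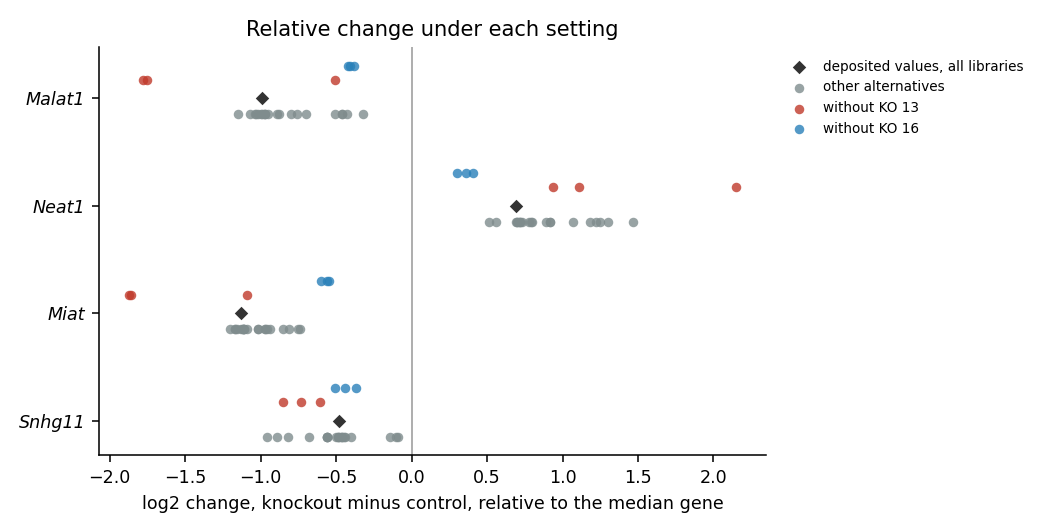
Log2 change between the libraries labelled knockout and the controls, relative to the median gene, for each RNA under every setting (black diamond, deposited values with all libraries). Malat1, Miat and Snhg11 lay below 0 and Neat1 above 0 under all 27 alternatives, with Neat1 between 0.30 and 2.15.

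The genes with the most similar pattern over the 5 libraries were found among 11035 named genes with a mean of at least 20 tags, by the root mean square difference of centred log2(value + 1). For Malat1 they were Fbn2, which encodes the matrix protein fibrillin 2 (difference 0.048), and Thbd, which encodes thrombomodulin (0.075). For Neat1 they were Tmem196 (0.093) and Tjp3, a tight junction protein gene (0.098). Tjp3 was at 25.45 and 55.45 in libraries 13 and 16, against 10.91, 12.73 and 9.09 in controls 9, 10 and 12. Those of Miat were Metrn (0.096) and Ndufs1, a gene of respiratory complex I (0.103). Snhg11 had less close ones, Cplx2, which encodes complexin 2 of the synapse (0.181), and Zfp503 (0.188). After scaling, the nearest genes were Stox2 and Ssbp3 for Malat1, Slc12a5 and Qrfpr for Neat1, Metrn and Slc25a25 for Miat, and Vps28 and Trmt10c for Snhg11, so Metrn alone was found on both scales. With 5 libraries and so many candidates these are descriptions only.

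**Figure D5:**
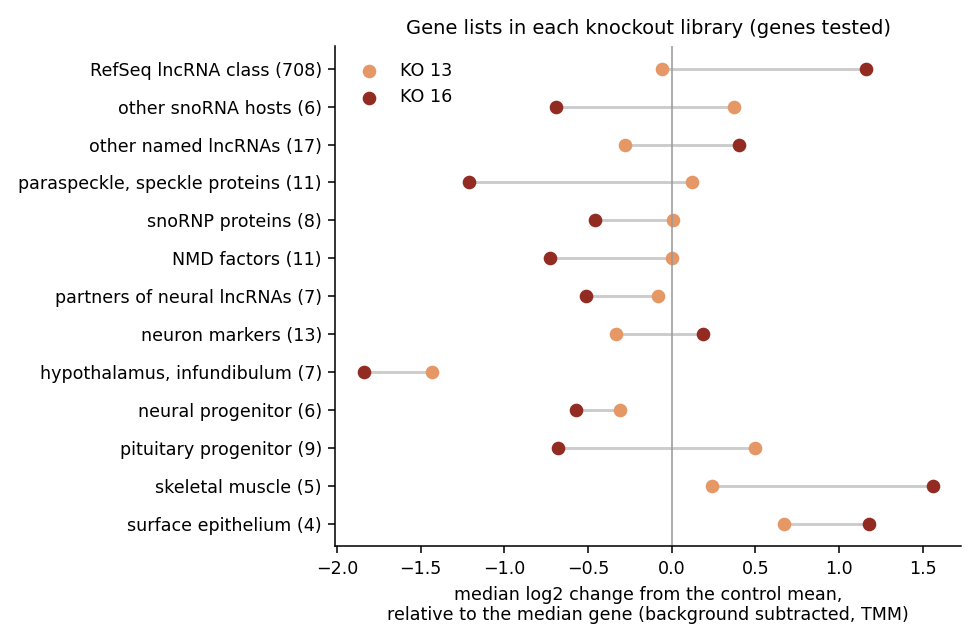
Median log2 change of each gene list from the control mean in library 13 (light) and library 16 (dark), relative to the median gene, with background subtracted and TMM factors; the number of genes tested is in brackets. Hypothalamic and infundibular genes were low in both libraries (-1.43 and -1.84), while speckle and paraspeckle protein genes were at 0.12 and -1.21. The skeletal muscle medians are over 5 genes and are not read here. Actc1 (7.88, 1.59 and 2.05) and Tnnt3 (1.1, 6.15 and 6.03) averaged under 5 scaled tags in controls 9, 10 and 12. Both passed the filter of 5 through libraries 13 and 16.

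Markers of other tissues that a dissected gland can hold were counted too. Skeletal muscle genes had 0 of 9 called, with Ttn at a relative change of 0.56 and Myh3 at 0.44. Of these 9, Myf5 and Myog averaged under 1 tag in the controls and passed the filter through libraries 13 and 16, so no median over the 9 is given. Surface epithelium genes had 0 of 8 called and 6 above the median gene, with medians of 0.33 in library 13 and 0.80 in library 16, Trp63 at 0.89 and Dsp at 0.21. Pituitary progenitor genes had 0 of 9 called and medians of 0.51 and -1.63, or 0.50 and -0.68 on the scaled values, Pitx1 at -0.56. Summed scaled levels of the muscle genes were 159.97 and 250.68 in libraries 13 and 16, against 77.19 to 157.37 in the controls, and those of the epithelial genes 136.01 and 273.72, against 83.62 to 100.57. Those of the progenitor genes were 927.81 and 488.37, against 641.27 to 731.74. On the deposited values none of these genes was at 0 in libraries 13 and 16, while 1 or 2 muscle genes were in each control and 1 epithelial gene in control 9. Of all genes 815 and 334 were at 0 in libraries 13 and 16, against 846 to 1788 in the controls. The muscle sums include Myf5 and Myog, and Ttn, over 277.8 kb, held 110.08 and 114.74 of them, against 56.47 to 104.81 in the controls. In the epithelial sums Trp63, over 207.5 kb, held 23.59 and 102.53, against 10.06 to 12.94. The background taken off grows with region length. Library 16, where Neat1 was highest, thus had the higher muscle and epithelial sums and the lower progenitor sum; their part in the Neat1 level was not tested.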

How the data were processed

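RNA-seq of 5 pituitaries was read from the all-gene table, where the authors deposited, for each region, a signal scaled to 10000000 tags in every library (per the file headers). Tools named in the submitters' processing notes are HOMER, Bowtie2 and edgeR, without roles or versions, and the build is mm9. The table of changed genes was not used here. Dividing by 10/11 gave a whole number, within 0.02 reads, for 100.00% of values, as for 11000000 total tags in a library, and reads were recovered from them. The longest of the regions of a symbol was kept (21022 regions, 20097 symbols). Control libraries differed by more than counting noise (chi-square per degree of freedom at least 9.1).

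The planned test was limma 3.58.1 under R 4.3.3, 2-sided and trended, on log2(value + 1), over genes with a mean of at least 1, Benjamini-Hochberg adjusted at 0.05. This scale understates changes of low genes. Background came from 406 autosomal receptor genes, subtracted with a floor of 0; with TMM factors a mean of at least 5 was asked. Count tests used edgeR 4.0.16 and DESeq2 1.42.0 on the recovered reads. Fits were also run on simulated counts without the background or composition shifts of these libraries. That run is no check on the calls here. The 8 RNAs, the lists and the tests were chosen with earlier results of these data known. Named genes were the 4 RNAs, their 2 nearest genes each, neighbours, and up to 4 called genes of a list or else its 2 of highest level; any others are named as chosen later. Older symbols were matched through RefSeq. Poisson and binomial intervals are at 95%. Some genes that this rule names are not reported here.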

Additional observations from a re-analysis of the deposited data

How the results depend on the processing

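The sign of the change relative to the median gene held for Malat1, Neat1, Miat and Snhg11 under all 27 alternatives run; the plain log2 change was positive in 3 of them for Malat1, 27 for Neat1, 2 for Miat and 11 for Snhg11. No gene was called with the deposited values, while a threshold of 0.1 called 2685 genes, all higher, and DESeq2 called 23 of 19936, all lower. DESeq2 gave no adjusted p for Neat1, Miat and Snhg11. When each library was left out in turn, also in the edgeR and the scaled fits chosen after seeing the data, the number of genes called ran from 0 to 7945. The edgeR test without library 13 called 7945, the scaled fit without it 3300, and the same fits without library 16 called 3 and 2. The number of the 4 RNAs called ran from 0 to 2, with 2 only without library 13. Relative changes ran from -1.78 to -0.32 for Malat1, 0.30 to 2.15 for Neat1, -1.87 to -0.55 for Miat (-1.09 in the scaled fit without library 13) and -0.96 to -0.09 for Snhg11. The ratio of Miat to Malat1, -0.14 in log2 between the groups, turned to 0.02 without control 9 and ran from -0.41 to 0.02 as libraries were left out. No paired analysis was run, as the sample labels used here do not say which embryos shared a litter. Counts of 7 to 38 reads limit Neat1 and Snhg11. The cause of these dependences was not tested.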
